A study of Homo sapiens with 6 samples.

Results

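CEBPB, CEBPD, CEBPE, CEBPG and CEBPZ, the genes that carry the C/EBP name beside CEBPA, were followed by their names through RNA-seq of K562 cells. All 5 genes had 1 row in each of the deposited tables, out of 16585 genes with 1 row that gave all 3 groups. K562 cells are an established line from a human leukemia and keep erythroid features. The cells carried a PiggyBac transposon with a doxycycline-inducible cassette: an empty vector in the CTR line, wild-type C/EBPα in the CEBPA line, and its shorter isoform C/EBPα-p30 in the P30 line. All groups, controls included, received 200 ng/ml doxycycline for 48 h, and each had 2 replicates. The legend of the paper's western blot names both the full-length protein and p30 for the CEBPA line. CEBPA against P30 cells may therefore not compare full-length protein alone with p30. The paper also reports that doxycycline stopped proliferation and induced granulocytic differentiation in CEBPA cells, without an effect on proliferation in the other lines. No sample without doxycycline was analysed here, and whether a line was a single clone or a pool was not given in the sources used here. CEBPA itself, the induced gene, was not analysed here.

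C/EBP proteins are transcription factors that grip DNA through a basic region and pair through a leucine zipper, with each other or with other zipper proteins. In the myeloid lineage C/EBPα starts the granulocyte program, C/EBPβ is known for granulocyte production under stress and for macrophage and inflammatory genes, and C/EBPε for the late, granule-forming steps of neutrophil maturation. C/EBPδ is an inducible factor of the acute-phase response. C/EBPγ lacks a typical activation domain and pairs with ATF4 on amino acid response genes. CEBPZ shares only the name: it binds CCAAT boxes, has no leucine zipper of this family, and is related to a yeast nucleolar protein of ribosome assembly.

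The deposited values are FPKM, fragments scaled by transcript length and by the mapped fragments of a library, with 1 value for each gene and group in which the replicates were pooled. These values therefore carry no depth per sample and no SD, and every difference given here is a description without a test or a replicate check. The paper gives a range of read pairs over the samples and a correlation between replicates, but no spread for single genes. Changes are differences of log2(FPKM + 1), a scale on which low genes appear to change less than they do. A gene entered a comparison if either group exceeded 1 FPKM. A gene was counted as higher or lower where this difference reached 2-fold. Both comparisons with CTR share the CTR libraries. In bulk RNA, fewer cells making a transcript and less RNA of it per cell cannot be told apart. The erythroid markers of K562 cells, of which 7 of 10 had a row, summed to 1786 FPKM in CTR, 708 FPKM in CEBPA and 1285 FPKM in P30. Of the lymphoid markers, 3 of 5 had a row and summed to 13.2, 4.34 and 13.2 FPKM. Of the monocyte and granulocyte markers, 2 of 5 had a row and summed to 3.12, 60.1 and 3.03 FPKM, mostly CSF3R, the G-CSF receptor. Their part in the values of the C/EBP genes was not tested.

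CEBPE and CEBPB moved in opposite directions in the cells with wild-type C/EBPα, and CEBPD, CEBPG and CEBPZ stayed within 2-fold in every comparison. CEBPE went from the lowest level of the 5 genes in CTR to a level close to that of CEBPB in CEBPA cells. P30 cells lay between CTR and CEBPA cells for both genes. These levels are drawn in the plot of FPKM by gene and group.

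**Figure D1:**
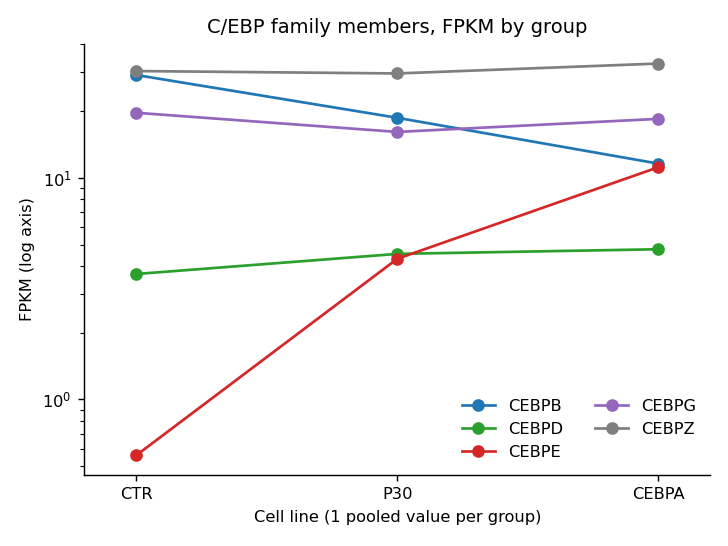
FPKM of each of the 5 genes (log axis) in CTR, CEBPA and P30 cells, 1 pooled value per point, with no error because the replicates were pooled. CEBPE spans 0.560 to 11.2 FPKM and CEBPB 11.6 to 29.1 FPKM. For CEBPD, CEBPG and CEBPZ, the points of the same gene lie close to each other.

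CEBPE (ENSG00000092067, minus strand of chr14:23586245-23589465, GRCh37) has a canonical transcript of 2 exons and 1191 nucleotides. Its level was 0.560 FPKM in CTR cells, 11.2 in CEBPA cells and 4.31 in P30 cells. The control level lay below the 1 FPKM used as a filter, and only 8.17% of the 13669 genes with over 1 FPKM in some group were lower there. In CEBPA cells 47.6% of these genes were lower, so that CEBPE stood near the middle of all genes, whose median was 12.3 FPKM. In P30 cells 30.5% were lower. The ratio of CEBPA to CTR was 19.9, that of P30 to CTR 7.70 and that of CEBPA to P30 2.59.

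CEBPB (ENSG00000172216, plus strand of chr20:48807367-48809205) has a canonical transcript of 1 exon and 1839 nucleotides. Its level was 29.1 FPKM in CTR cells, 11.6 in CEBPA cells and 18.7 in P30 cells. CTR cells thus held 2.51 times the level of CEBPA cells and 1.56 times that of P30 cells. The share of genes below it was 72.4% in CTR, 48.4% in CEBPA and 61.2% in P30.

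CEBPG (ENSG00000153879, plus strand of chr19:33864591-33873592) has a canonical transcript of 2 exons and 3730 nucleotides. It was at 19.7 FPKM in CTR cells, 18.5 in CEBPA cells and 16.1 in P30 cells, above the median of all genes in each group. CEBPD (ENSG00000221869, minus strand of chr8:48649475-48650726), with a canonical transcript of 1 exon and 1252 nucleotides, was at 3.68 FPKM in CTR cells, 4.76 in CEBPA cells and 4.54 in P30 cells. Between 28.6% and 31.3% of genes were lower than CEBPD in the 3 groups. CEBPZ (ENSG00000115816, minus strand of chr2:37428755-37458739), with a canonical transcript of 16 exons and 3346 nucleotides, was at 30.3 FPKM in CTR cells, 32.8 in CEBPA cells and 29.6 in P30 cells.

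FPKM is a level per transcript length, so the genes can also be ordered within a group. CEBPZ was highest in all 3 groups. In CTR and in P30 cells it was followed by CEBPB, CEBPG, CEBPD and CEBPE, and in CEBPA cells by CEBPG, CEBPB, CEBPE and CEBPD. CEBPZ exceeded CEBPB 1.04-fold in CTR, and CEBPB exceeded CEBPE 1.04-fold in CEBPA cells. CEBPD exceeded CEBPE only from 4.31 to 4.54 FPKM in P30 cells. Without a spread between replicates, the order of such near neighbours is not settled by these values.

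Upstream sequence is shown for CEBPE and CEBPB, the genes past 2-fold, and for CEBPG, which held the only match to a joint C/EBP and ATF motif. RefSeq promoters of 250 bases before to 50 bases after a start (GRCh38.p14) were found for 4 of the 5 genes, 6 promoters in all, and were matched exactly to GRCh37. CEBPD was not among them. On both strands, TTGCNNAA, the inner part of a C/EBP site, was in 10.5% of all 35116 promoters, TGATGNAA, a joint C/EBP and ATF motif, in 3.62%, and CCAAT in 34.6%. The 150 bases before the start of CEBPE (minus strand of chr14:23588465-23588614, GRCh37), of CEBPB (plus strand of chr20:48807217-48807366) and of the second start of CEBPG (plus strand of chr19:33864869-33865018) read as follows, with the joint motif in capitals.
CEBPE: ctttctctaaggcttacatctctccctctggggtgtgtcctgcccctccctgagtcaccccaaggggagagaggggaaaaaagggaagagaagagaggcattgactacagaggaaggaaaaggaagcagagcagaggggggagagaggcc
CEBPB: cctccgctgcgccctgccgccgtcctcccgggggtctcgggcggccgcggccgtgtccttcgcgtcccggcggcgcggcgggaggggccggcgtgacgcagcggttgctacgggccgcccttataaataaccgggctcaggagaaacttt
CEBPG: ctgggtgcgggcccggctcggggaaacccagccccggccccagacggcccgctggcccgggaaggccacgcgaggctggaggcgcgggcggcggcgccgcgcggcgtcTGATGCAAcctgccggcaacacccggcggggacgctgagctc
The CEBPE stretch precedes the RefSeq start used here and lies inside the annotated span of the gene, chr14:23586245-23589465. Its place relative to the exons of the annotated transcripts was not computed. The CEBPE and CEBPB stretches hold none of the 3 motifs. The match of CEBPG, TGATGCAA, begins 42 bases before its second start. The first start of CEBPG had CCAAT on the opposite strand beginning 85 and 24 bases before it, and in CEBPB a CCAAT lay 245 bases before the start shown, outside the printed bases. None was found for CEBPZ. A match describes letters only, and no binding was measured in these data. The GC content was 56% for CEBPE, 74% for CEBPB and 80% for CEBPG.

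In CEBPA against CTR cells, 1 gene of the 5 was higher (CEBPE), 1 was lower (CEBPB) and 3 were under 2-fold. Of all 13673 genes compared, 14.0% were higher and 6.92% were lower by the same measure. The change of CEBPE was 2.96 on the log2 scale, and 246 genes (1.80%) rose at least as far. CEBPE did not exceed 1 FPKM in CTR cells and entered this comparison through CEBPA cells, where it was high. The change of CEBPB was -1.26, and 492 genes (3.60%) fell at least as far. CEBPD changed by 0.30, CEBPZ by 0.11 and CEBPG by -0.087 (0.023 after rescaling to TPM, which moved the median of all genes by 0.10), differences exceeded in either direction by most genes in this comparison. For CEBPG, for example, 90.7% of genes lay at least as far from 0.

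In P30 against CTR cells, the comparison with the fewest changed genes, CEBPE was the 1 gene of the 5 counted as higher and 0 were lower. Among 12395 genes, 1.02% were higher and 0.613% were lower. The change of CEBPE was 1.77, and 45 genes (0.363%) rose at least as far. Here too CEBPE exceeded 1 FPKM only in the group in which it was higher. CEBPB changed by -0.61, short of 2-fold, and 278 genes (2.24%) were lowered at least that much. CEBPG changed by -0.27, with 10.8% of genes at least as low, CEBPD by 0.24, with 14.1% at least as high, and CEBPZ by -0.035.

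Between CEBPA and P30 cells, CEBPE was again the 1 gene of the 5 that was higher, and 0 were lower, beside 13.1% and 5.79% of 13569 genes. Its change was 1.20, and 10.0% of genes were at least as much higher in CEBPA cells. CEBPB differed by -0.64, a size reached or passed by 15.3% of genes in that direction. CEBPG differed by 0.19, CEBPZ by 0.14 and CEBPD by 0.057. The plot of changes sets all 5 genes against the spread of all genes, whose median absolute deviation, scaled to an SD, was 0.73 for CEBPA vs CTR, 0.20 for P30 vs CTR and 0.67 for CEBPA vs P30.

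**Figure D2:**
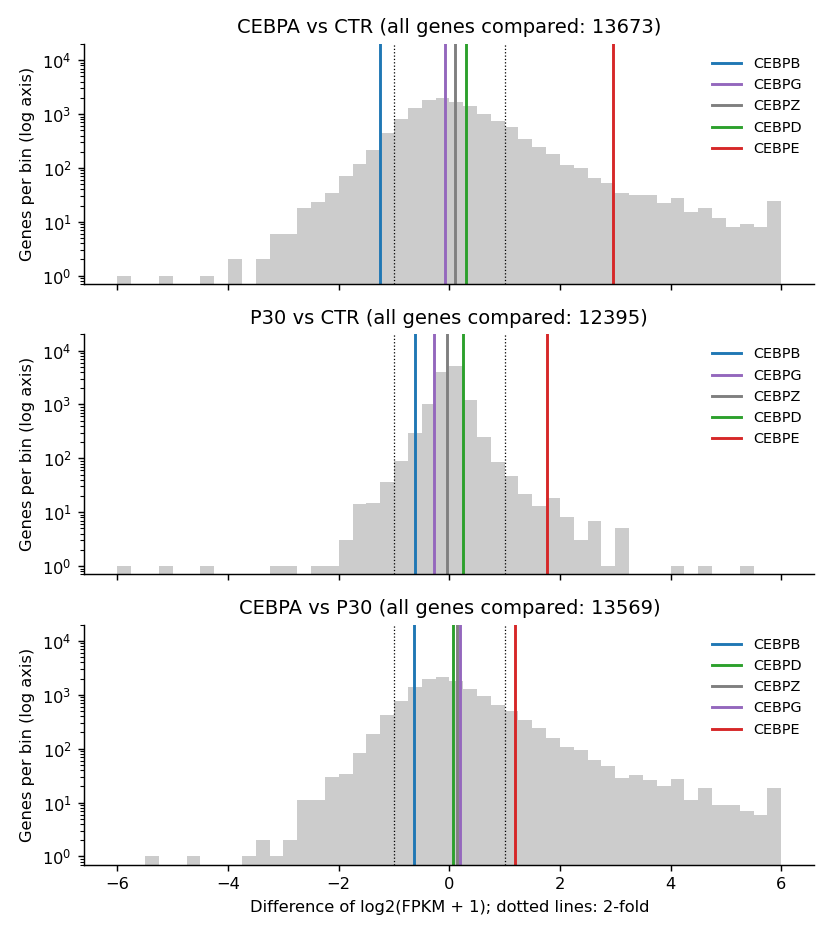
Histograms of the difference in log2(FPKM + 1) for all genes compared (number of genes, log axis) in each of the 3 comparisons, with the 5 genes marked by lines and genes beyond 6 in either direction counted in the outer bins. CEBPE lies at 2.96, 1.77 and 1.20 and CEBPB at -1.26, -0.61 and -0.64, while the lines of the other genes stay near 0.

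Both the sum of the leucine zipper members and its make-up differed between the groups, with the largest shifts of share for CEBPB and CEBPE. CEBPB, CEBPD, CEBPE and CEBPG together came to 53.0 FPKM in CTR cells, 46.0 in CEBPA cells and 43.6 in P30 cells. CEBPB made up 54.9% of this sum in CTR, 25.2% in CEBPA and 42.8% in P30. CEBPE made up 1.06%, 24.3% and 9.89%, in the same order. CEBPG held 37.1%, 40.1% and 36.9%, and CEBPD 6.95%, 10.4% and 10.4%. The ratio of CEBPB to CEBPE was 52.0 in CTR, 1.04 in CEBPA and 4.33 in P30. The ratio of CEBPB to CEBPG was 1.48, 0.628 and 1.16. These shares concern transcripts of 4 genes and leave out the induced C/EBPα.

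**Figure D3:**
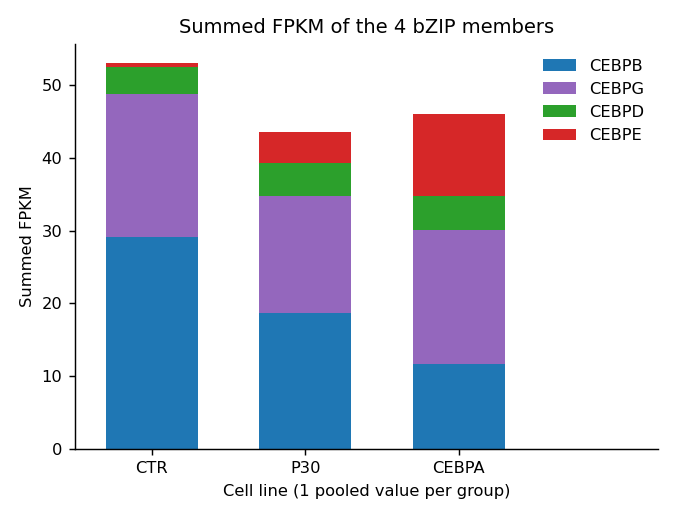
Summed FPKM of the 4 leucine zipper members in CTR, CEBPA and P30 cells, stacked by gene, from pooled values without error. The sum is 53.0, 46.0 and 43.6 FPKM, and CEBPE takes 24.3% of it in CEBPA cells against 1.06% in CTR.

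Genes that act with or downstream of the C/EBP proteins were followed in 6 lists. The lists overlap: 6 genes stand in more than 1 of them, namely DDIT3, ATF3, ATF5 and TRIB3, also listed as amino acid response genes, and ORM1 and HP, listed both as granule and as acute-phase genes. Of 23 leucine zipper partners, 20 had a row. In CEBPA against CTR cells 5 were higher, 2 were lower, 11 were under 2-fold and 2 did not exceed 1 FPKM in either group. These are 27.8% and 11.1% of the 18 partners compared, beside 14.0% higher and 6.92% lower over all genes. Of these 18, FOSL2 and BATF3, both among the higher, exceeded 1 FPKM in CEBPA and not in CTR cells. For 1 other it was in CTR and not in CEBPA cells. The median change was 0.49 in these 18 and 0.38 in all 20, beside -0.01 over all genes compared. NFIL3, a repressor of the same superfamily, was at 7.46 FPKM in CTR cells, 81.5 in CEBPA cells and 7.44 in P30 cells. FOSL2, a subunit of AP-1, was at 0.350, 23.6 and 0.861 FPKM, and FOS, another AP-1 subunit, at 2.21, 21.2 and 1.66 FPKM. These values were high in CEBPA cells alone of the 3 groups. The stress-induced factor ATF3 was at 10.8, 27.0 and 6.09 FPKM, and BATF3 at 0.290, 5.81 and 0.584 FPKM. The partners that were lower were ATF5, at 129, 25.6 and 82.1 FPKM, and BATF2, at 6.09, 1.90 and 7.32 FPKM. ATF4, the partner of C/EBPγ, was at 351, 179 and 383 FPKM, a change of -0.97 in CEBPA against CTR cells. DDIT3, which encodes CHOP, a C/EBP-related protein that forms dimers with impaired binding to C/EBP sites, was at 47.2, 40.3 and 38.0 FPKM. In P30 against CTR cells 0 of the 16 partners compared reached 2-fold, where only 1.02% of all genes were higher and 0.613% lower, so that this count says little about the partners. In CEBPA against P30 cells 6 were higher and 3 lower of 18 compared, beside 13.1% and 5.79% of all genes. FOSL2 and BATF3, both higher, again exceeded 1 FPKM in CEBPA cells alone of this pair, and 1 other in P30 cells alone.

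The list of 21 genes that act on C/EBP proteins or their genes, 20 of them with a row, gave 4 higher, 1 lower and 15 under 2-fold in CEBPA against CTR cells, with a median change of -0.12. The shares of 20% higher and 5% lower lie near the 14.0% and 6.92% of all genes. TRIB1 and TRIB2, adaptors that bring C/EBPα to a ubiquitin ligase, were among those higher. TRIB1 was at 1.68 FPKM in CTR cells, 106 in CEBPA cells and 1.54 in P30 cells, and TRIB2 at 20.9, 74.1 and 27.3 FPKM. FBXW7, part of a ubiquitin ligase that acts on C/EBP proteins, was at 6.23, 18.9 and 7.01 FPKM. GFI1, a transcriptional repressor that acts within the neutrophil lineage, was at 0.524, 5.09 and 1.84 FPKM, and so did not exceed 1 FPKM in CTR cells. EIF4EBP1, an inhibitor of cap-dependent translation, was the gene that was lower, at 115, 39.6 and 134 FPKM. In P30 against CTR cells 2 were higher: SPI1, which encodes PU.1, at 41.3 in CTR and 89.4 FPKM in P30, and RUNX1, a hematopoietic transcription factor, at 17.9 and 47.1 FPKM. These 2 of 20 stand beside 1.02% of all genes. CEBPA cells lay at 78.2 FPKM for SPI1 and 33.3 FPKM for RUNX1. In CEBPA against P30 cells 4 regulators were higher and 2 lower, again with 13.1% and 5.79% over all genes.

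Among 18 genes known for dependence on C/EBPε or for neutrophil granule content, 16 had a row. In CEBPA against CTR cells 14 were higher and 0 lower, beside 14.0% and 6.92% of all genes, with a median change of 5.48 over all 16. The median was 5.74 over the 15 that exceeded 1 FPKM, but 9 of these did so in CEBPA and not in CTR cells and entered through the group in which they were high. In P30 against CTR cells 7 were higher and 3 under 2-fold, and the other 6 did not exceed 1 FPKM in either group. The median there was 0.63 over all 16 and 1.97 over the 10 compared, of which 4 exceeded 1 FPKM in P30 and not in CTR cells. All genes gave 1.02% higher and 0.613% lower in that comparison. CEBPE itself was higher in both groups. CRISP3, a granule protein, was at 1.67 FPKM in CTR cells, 97.6 in CEBPA cells and 49.7 in P30 cells, and ITGB2, the shared chain of the leukocyte integrins, at 1.39, 39.9 and 20.3 FPKM. MS4A3, a membrane protein of myeloid precursors, was at 6.22, 26.4 and 28.9 FPKM. For these 3 genes both induced lines were high. LCN2, an iron-scavenging granule protein, was at 3.94, 264 and 3.16 FPKM, and MMP8, the neutrophil collagenase, at 0.0582, 177 and 0.211 FPKM, so that P30 cells stayed near the control. The genes not higher in CEBPA against CTR cells were MMP9, a gelatinase at 0.0716, 0.556 and 0.0562 FPKM, and ITGAM, an integrin chain. ITGAM was at 2.59 FPKM in CTR cells, 2.43 in CEBPA cells and 14.3 in P30 cells. In CEBPA against P30 cells 11 were higher and 1, ITGAM, was lower, beside 13.1% and 5.79% of all genes. Of the 15 compared there, 5 exceeded 1 FPKM in CEBPA and not in P30 cells.

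Acute-phase and inflammatory genes linked to C/EBPβ and C/EBPδ numbered 19, of which 13 had a row. Of these, 9 were higher and 0 lower in CEBPA against CTR cells, in which CEBPB was lower and CEBPD was within 2-fold. Among the 9 are ORM1 and HP, the largest changes of the list, which were counted with the granule genes too. The median change was 1.83 over all 13, of which 9 exceeded 1 FPKM in CEBPA and not in CTR cells and 2 in neither. All genes gave 14.0% higher and 6.92% lower. The cytokine gene IL6 was at 0.394 FPKM in CTR cells, 6.24 in CEBPA cells and 0.371 in P30 cells. IL8, a neutrophil-attracting chemokine, was at 0.298, 27.8 and 0.279 FPKM, and PTX3, a pentraxin, at 0.295, 41.3 and 0.722 FPKM. SOCS3, an inhibitor of cytokine signaling, was at 13.4, 8.49 and 7.61 FPKM. In P30 against CTR cells 1 gene, ORM1, was higher, at 0.178 and 3.41 FPKM, and 3 were under 2-fold. The other 9 did not exceed 1 FPKM in either group and were not compared. Of the 4 compared, 2 exceeded 1 FPKM in P30 and not in CTR cells, and 1 in CTR and not in P30 cells. ORM1 is among these 2 and entered through the group in which it was high. All genes gave 1.02% higher and 0.613% lower there. In CEBPA against P30 cells 9 were higher of 11 compared, beside 13.1% of all genes. Of these 11, however, 8 exceeded 1 FPKM in CEBPA and not in P30 cells, and entered through the group in which they were high.

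The 20 amino acid response genes tied to C/EBPγ and ATF4 all had a row. In CEBPA against CTR cells 2 were higher, 8 were lower and 10 were under 2-fold, with a median of -0.51, whereas CEBPG itself was within 2-fold. The list thus held 10% higher and 40% lower, beside 14.0% and 6.92% of all genes. ASNS, asparagine synthetase, was at 219 FPKM in CTR cells, 35.4 in CEBPA cells and 112 in P30 cells. DDIT4, an inhibitor of mTORC1, was at 168, 9.90 and 126 FPKM, and PHGDH, the entry enzyme of serine synthesis, at 132, 51.5 and 83.7 FPKM. The genes that were higher were ATF3, given above, and SLC7A11, the cystine transporter, at 8.88, 26.2 and 6.74 FPKM. In P30 against CTR cells 2 were lower, CHAC1, which degrades glutathione, at 6.90 in CTR and 2.19 FPKM in P30, and CTH, an enzyme of cysteine synthesis, at 28.4 and 13.5 FPKM. The median there was -0.36, and 0.613% of all genes were lower. In CEBPA against P30 cells 5 were higher and 6 lower, or 25% and 30%, beside 13.1% and 5.79% of all genes.

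Of 20 nucleolar and ribosome assembly genes, listed as the company of CEBPZ, 18 had a row, and 0 of these reached 2-fold in any of the 3 comparisons. Over all genes 14.0% were higher and 6.92% lower in CEBPA against CTR cells, 13.1% and 5.79% in CEBPA against P30 cells, but only 1.02% and 0.613% in P30 against CTR cells, where a count of 0 says little. Their median change was -0.081 in CEBPA against CTR, 0.076 in P30 against CTR and -0.17 in CEBPA against P30 cells. NOC2L and NOC3L, relatives of yeast nucleolar complex proteins, were at 74.7 and 10.9 FPKM in CTR, 61.5 and 13.9 in CEBPA, and 71.7 and 11.5 in P30. FBL, the methyltransferase of ribosomal RNA, came near to 2-fold, at 273 FPKM in CTR cells, 147 in CEBPA cells and 290 in P30 cells. The plot of the gene lists shows each listed gene in both comparisons with CTR.

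**Figure D4:**
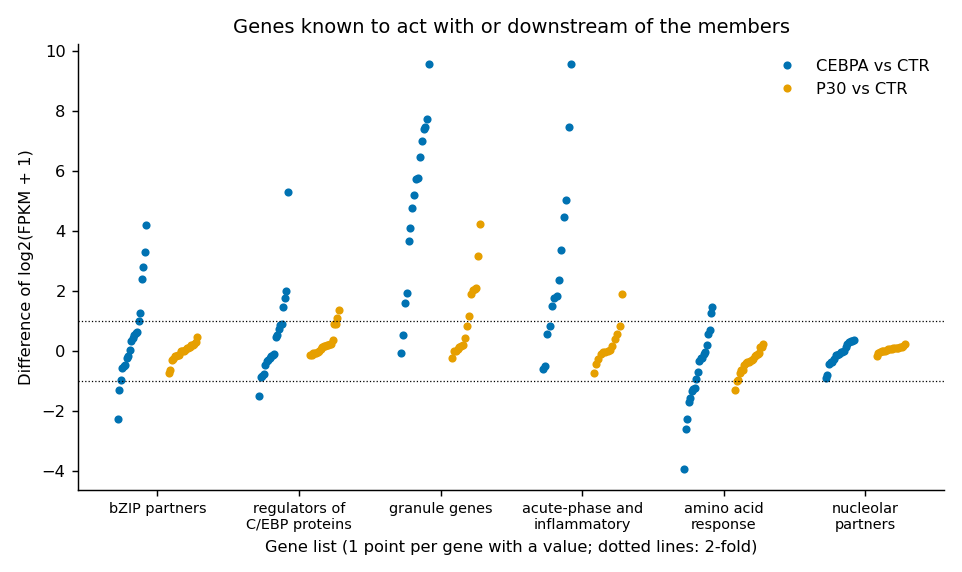
Change in log2(FPKM + 1) of each listed gene that had a row (1 point per gene), by list, in CEBPA against CTR cells (blue) and P30 against CTR cells (orange), with dotted lines at 2-fold. Genes at or below 1 FPKM in each group are drawn too. In CEBPA against CTR cells 14 of 16 granule genes lie at least 2-fold higher, and nucleolar genes lie within 2-fold in both comparisons.

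CEBPZ starts beside another gene on the opposite strand. NDUFAF7, an assembly factor of mitochondrial complex I, begins 35 bases from the start of CEBPZ, and 34 bases separate the annotated genes (chr2:37458740-37458773, GRCh37, shown on the strand of CEBPZ).
gap: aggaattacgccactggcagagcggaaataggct
NDUFAF7 was at 13.2 FPKM in CTR cells, 31.9 in CEBPA cells and 13.3 in P30 cells, a change of 1.21 in CEBPA against CTR cells, next to 0.11 for CEBPZ. The pair thus differed in CEBPA cells although their starts adjoin. CEBPZ-AS1, which overlaps CEBPZ on the opposite strand and is annotated as CEBPZOS in the later Gencode release, was at 38.9, 45.0 and 35.8 FPKM. The library was strand-specific, but whether the authors' estimation used strand is not given in the sources used here, so reads of these overlapping genes may not be separable. Genes near the other members are drawn in the plot of neighbours. SLC7A8, an amino acid transporter gene 5038 bases from CEBPE, was at 27.9, 11.8 and 16.4 FPKM, opposite in direction to CEBPE in both comparisons with CTR.

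**Figure D5:**
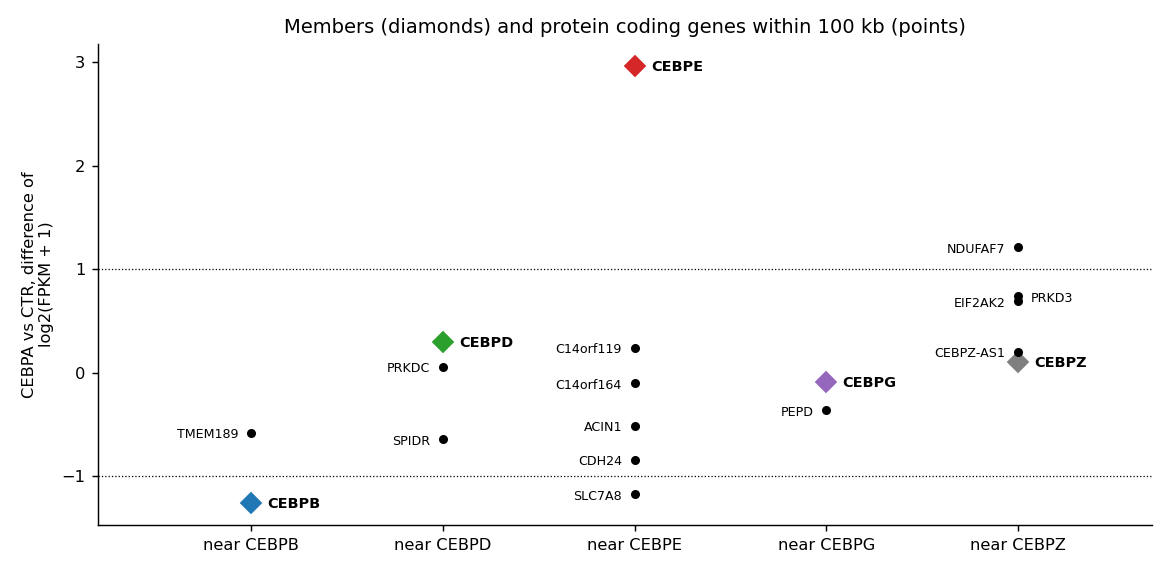
Change in log2(FPKM + 1) between CEBPA and CTR cells for the 5 genes (diamonds) and for the protein coding genes within 100 kb of each (points), with dotted lines at 2-fold. CEBPE at 2.96 stands apart from its neighbours, of which SLC7A8 is at -1.17, and NDUFAF7 is at 1.21 beside CEBPZ at 0.11.

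The genes most like each member across the 3 groups were found by the Euclidean distance between log2(FPKM + 1) values after their mean was subtracted, over 3 pooled values. CEBPB was closest to CST3, the gene of cystatin C, at a distance of 0.015, with 130, 54.1 and 85.7 FPKM in CTR, CEBPA and P30, followed by LINGO1 and GLIPR2. For CEBPE the closest gene, PNRC1, a nuclear receptor coactivator, was 0.30 away, at 5.65, 50.8 and 16.5 FPKM, followed by COLGALT2 and EMR3. Within a distance of 0.1 there were 0 genes for CEBPE, 29 for CEBPB, 206 for CEBPG, 445 for CEBPD and 697 for CEBPZ. CAPG was nearest to CEBPG, BBS10 to CEBPD and RPS18P9 to CEBPZ. With 3 values a small distance is common among genes that barely vary.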

How the data were processed

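RNA was sequenced from 6 samples of doxycycline-treated K562 cells, 2 replicates in each of 3 groups. The authors aligned strand-specific reads to hg19 with TopHat2 2.0, after base calling with CASAVA 1.4 per the labels, used Cufflinks with Gencode gene models, and estimated FPKM with Cuffdiff. The labels and the paper's methods name different kits for RNA preparation, and the replicates came from 2 sequencing runs with different instruments and read lengths. The deposited FPKM are 1 value per gene and group, so that they give neither the depth of a sample nor the replicate spread of a gene. The authors' fold changes, p-values and calls were not used.

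Differences of log2(FPKM + 1) were computed from these values for genes above 1 FPKM in either group, with a call at 2-fold. Symbols that occur once in both tables with CEBPA values, and are not repeated in the other, were joined to give all 3 groups. List values were read from this join or, for a gene outside it such as CCL2, from the table of the pair. List counts at 2-fold refer to genes over the filter. The computation was tested on simulated data. The members and lists were chosen with earlier results of these data known. Genes named are the members, the listed genes, the 3 nearest in pattern to each member, and genes within 100 kb. The alternatives were a pseudocount of 0.1 or none, a filter at 5 FPKM or none, rescaling to TPM and centring on the median. Locations come from a later Gencode release lifted to GRCh37 than the authors used. Computation used pandas 2.3.3 and numpy 2.4.6 in Python 3.11.15, and figures matplotlib 3.10.9.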

Additional observations from a re-analysis of the deposited data

How the results depend on the processing

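Of 143 values recomputed under the alternatives for 39 results, 124 stayed close to the reported value, 19 moved and 0 reversed. A change or a median was counted as moved where it differed by over 0.20 on the log2 scale. This limit is the scaled median absolute deviation of P30 vs CTR over all genes, since the pooled values carry no replicate spread. A change of sign was counted as reversed only where the reported value was at least 2-fold. Counts of members past 2-fold were judged by their ratio. Orders of levels were judged by equality, and rescaling to TPM within a group cannot alter them. Among the member changes, 80 of 86 stayed close. This count includes the values under the filter settings, which drop a member or leave its change unaltered, and so could not move. The 6 that moved all belonged to CEBPE against CTR, whose CTR level of 0.560 FPKM is under the pseudocount. Its change in CEBPA cells was 4.09 with a pseudocount of 0.1, 4.32 with none and 3.39 after rescaling to TPM, and in P30 cells it was 2.74, 2.95 and 2.01. With a filter at 5 FPKM, 0 of the 3 members left reached 2-fold in P30 against CTR cells, because CEBPE and CEBPD are below 5 FPKM in both. Rescaling to TPM shifted the median of all genes by 0.10 in CEBPA vs CTR and by 0.12 in CEBPA vs P30, and turned the change of CEBPG in CEBPA vs CTR from -0.087 to 0.023, which is under 2-fold either way. Of the list medians, 12 of 36 moved.

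No paired analysis was possible because each group has 1 pooled value. Leaving out a replicate was not run for the same reason. The planned comparison of protein sequences was not run, since no protein table was at hand.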

Other observations

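Other genes beside the C/EBP genes had these values. TMEM189, 37095 bases from CEBPB, was at 179 FPKM in CTR, 119 FPKM in CEBPA and 178 FPKM in P30. SPIDR, 606 bases from CEBPD, was at 34.9, 22.0 and 28.6 FPKM, and PRKDC, on the other side of CEBPD, at 78.6, 81.8 and 76.0 FPKM. PEPD, 4263 bases from CEBPG, was at 25.6, 19.7 and 24.6 FPKM. Near CEBPZ, EIF2AK2, the kinase PKR, was at 7.45, 12.6 and 7.95 FPKM, and PRKD3 at 11.1, 19.2 and 12.7 FPKM. None of these 6 genes reached 2-fold in the 3 comparisons.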
